A study of Mus musculus with 2 samples.

Results

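Capillary endothelial cells of mouse epididymal fat were taken from a pair of single-cell libraries, and 213 of 2174 barcodes with at least 200 genes met the definition. A barcode was a member when Cdh5 and Cldn5, the vascular junction cadherin and claudin, summed to at least 3 unique molecular identifiers (UMIs, 1 per captured transcript). It also needed fewer than 5 UMIs over the mural cell genes Rgs5, Kcnj8, Abcc9 and Notch3, fewer than 10 of Dcn, and fewer than 10 over the complement genes C1qa, C1qb and C1qc. The libraries held the stromal vascular fraction (SVF) of epididymal white adipose tissue (eWAT) of C57BL/6 mice. The LFD library came from mice fed a low-fat diet and the HFD library from mice fed a high-fat diet, each for 24 wk from 6 wk of age. The sources used here do not state how many mice were behind a library. A free-text field of the labels names low-fat feeding for both, and the diet was therefore taken from the treatment field. Each diet was sequenced as 1 library and has no replicate, which leaves diet and library impossible to tell apart, and no p-value is given. Members were selected by measured counts, so every difference between them and other cells is a description.

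Blood capillaries of white fat are a continuous endothelium. Their cells display GPIHBP1, which carries lipoprotein lipase to the luminal face, where triglyceride is split into fatty acids. CD36, FABP4 and FABP5 then take up and bind those fatty acids on their way to the adipocyte. Arteries, veins, lymphatics and sprouting tips are told apart by their own transcription factors, ligands and adhesion molecules, and endothelial cells answer interferon with a set of antiviral and antigen-presenting genes.

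The LFD library gave 98 members of 1057 barcodes, or 9.27% (exact 95% interval 7.59 to 11.2%). The HFD library gave 115 members of 1117 barcodes, or 10.3% (8.57 to 12.2%). The log2 ratio of the shares was 0.15 (−0.22 to 0.52), so the interval includes no difference. This depends on the exclusion clauses: without them 159 LFD barcodes (15.0%, 12.9 to 17.3%) and 226 HFD barcodes (20.2%, 17.9 to 22.7%) met the definition, and the intervals do not overlap. LFD members held 552712 UMIs in all, and the median cell had 4317.5 UMIs and 1867.5 genes. HFD members held 516483 UMIs, with medians of 3156 and 1479. Median mitochondrial shares were 3.41% and 4.15%, and 0 barcode sequences were shared between the libraries. Levels are given as CPM, which is the number of UMIs of a gene for every 1000000 UMIs of the same cells. Intervals are exact, at 95%, and cover counting error only.

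The mural clause removed most of the barcodes that were left out. Of 385 barcodes with at least 3 UMIs of Cdh5 and Cldn5, 172 were excluded, 61 from LFD and 111 from HFD. The mural clause took out 58 LFD barcodes, 36.5% of those reaching the Cdh5 and Cldn5 limit (29.0 to 44.5%), and 108 HFD barcodes, 47.8% (41.1 to 54.5%). The barcodes it took out had medians of 14760.5 and 10036.5 UMIs, above those of the members. The Dcn clause applied to 7 and 11 barcodes and the C1q clause to 4 and 9. Excluded barcodes carried Gpihbp1 in all 172 cases, at 2597 and 2382 CPM, and also Rgs5 at 1665 and 1471 CPM. Pdgfrb, the pericyte receptor, was seen in 43 of the 61 and 84 of the 111, against 1 and 3 members. Whether an excluded barcode held 1 cell or an endothelial cell together with a pericyte was not tested. At the limits, 14 members had exactly 3 UMIs of Cdh5 and Cldn5 and 10 barcodes just outside had 2. Gpihbp1 was seen in 10 of those 14 and in all 10 just outside. Similarly, 10 members had 4 mural UMIs and 9 barcodes stayed out with 5. All of the former and all of the latter carried Gpihbp1.

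Of the 5 markers, Cdh5 and Cldn5 chose the members, so their levels are given as a description, whereas Gpihbp1, Kdr and Pecam1 were not used. Cldn5 had a median of 18 UMIs per LFD cell (0 to 120) and 17 per HFD cell (1 to 126), and Cdh5 medians of 6 (0 to 43) and 5 (0 to 43). Gpihbp1 ran from 0 through a median of 15.5 to 92 UMIs on LFD and from 0 through 12 to 127 on HFD, and was seen in 95.3% of all members. After thinning each cell to 1000 UMIs, which left 91 LFD and 96 HFD cells, it was seen in 91.2% and 93.8%. Among similarly thinned T lymphocytes, which should lack it, it was seen in 0% and 5% (the HFD group held 21 T lymphocytes before thinning). The T lymphocytes were chosen with fewer than 3 UMIs of Cdh5 and Cldn5, so barcodes with more endothelial RNA had been left out. Kdr, the main receptor for vascular endothelial growth factor, was at 1006 CPM (924 to 1093) on LFD and 898 (818 to 984) on HFD. Pecam1, the junction protein CD31, was at 867 CPM (791 to 948) and 1024 (939 to 1115). On GRCm38, the assembly that mm10 names, the GENCODE M21 annotation, which may not be the one the authors used, places these genes by their Ensembl identifiers at chr15:75596628-75599481 for Gpihbp1, chr5:75932827-75978458 for Kdr, chr11:106654217-106750628 for Pecam1, chr8:104101625-104144511 for Cdh5 and chr16:18776847-18778262 for Cldn5.

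Markers of most other cell types were at or near 0. The leukocyte gene Ptprc had 0 UMIs on LFD and 1 on HFD, and Pdgfra, of fibroblasts and progenitors, also had 0 and 1. The T and NK cell list summed to 1 and 10 UMIs, with 1 and 5 of its 7 matched genes seen, and the B cell list to 1 in each library. The fibroblast list reached 165 and 137 CPM, mostly from Gsn at 77 and 49 UMIs, and the mural list 66.9 and 130 CPM. Mesothelial genes had 6 UMIs on LFD and 0 on HFD. The macrophage list reached 2546 and 2180 CPM, of which Apoe was 1384 of 1407 and 1083 of 1126 UMIs. Adipocyte and red blood cell RNA was present and differed between the libraries, as given with the diet results. The study gave the name MSC2 to a mesenchymal stromal cluster and had a separate endothelial cluster. It linked the markers of MSC2 to antigen presentation and to endothelial development and differentiation. It speculated that MSC2 cells contribute to other stromal cells, endothelial cells among them. The study's assignment of barcodes was not used here. All 15 genes of the mesenchymal list were seen in members, and the list summed to 2059 and 2806 CPM. Of this Vim, an intermediate filament protein that endothelial cells also make, was 1835 and 2498 CPM, and Zeb1, a transcription factor, 116 and 124. The other 13 genes had at most 24 UMIs in a library, with Col1a1 at 2 and 3 and Pdgfra at 0 and 1. The cells are called endothelial from their endothelial markers.

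**Figure D1:**
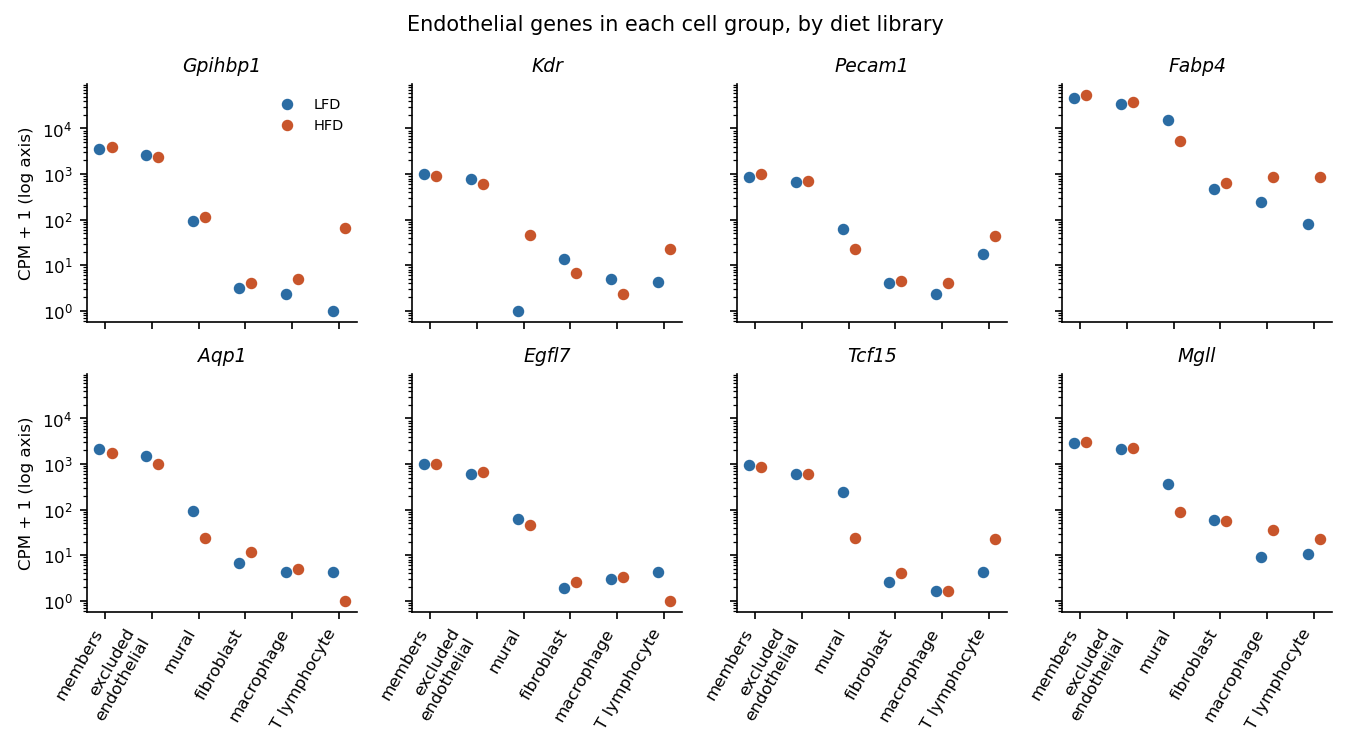
Level of 8 genes (CPM plus 1, log axis) in members, in barcodes that the exclusion clauses removed and in 4 reference cell groups, with 1 point per diet library. Members and excluded endothelial barcodes sit together at the top for every gene, and mural cells (6 LFD and 8 HFD barcodes), fibroblasts, macrophages and T lymphocytes lie lower, as with Gpihbp1 at 3568 and 3956 CPM in members and 2.18 and 3.11 CPM in fibroblasts. The reference groups were chosen with fewer than 3 UMIs of Cdh5 and Cldn5.

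The genes most enriched in members over all other barcodes, among those seen in at least 25% of members, were chosen on that ratio, which was taken after 20 CPM were added to each level. Gpihbp1 led at 3755 CPM against 388 in other barcodes. Aqp1, a water channel, followed at 1981 against 198 CPM, Egfl7, a secreted endothelial matrix protein, at 1019 against 102, and Tcf15, a transcription factor of fat endothelium, at 913 against 96.4. Ctla2a, a protease inhibitor, stood at 1644 against 190 CPM, although 38.2% of LFD and 55% of HFD T lymphocytes thinned to 1000 UMIs also carried it, against 51.6% and 76.0% of members. Fabp4 was the most abundant of these by far at 49515 CPM (49094 to 49938) against 6429. It ran from 0 through medians of 196.5 and 173 UMIs per cell to 1577 and 1555. Emcn, C1qtnf9, Mgll and Kdr completed the list at 461, 636, 2917 and 954 CPM. Mgll encodes the lipase that splits monoglycerides. The other barcodes include the 172 excluded ones, which carried the same genes.

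Several junction, caveolar and growth factor receptor genes were seen in most members. Esam, a junction protein, was seen in 87.3% and Cav1, the coat protein of caveolae, in 91.5%. Esam was at 926 and 974 CPM and Cd93 at 789 and 864 CPM in the LFD and HFD members. Cav1 was at 1731 and 1849 CPM, and Cavin2, written Sdpr in the files, at 1862 and 1971. Flt1 and Ptprb, a second VEGF receptor and the phosphatase that restrains TIE2, were at 1239 and 1166 CPM and at 1225 and 1226 CPM. Tek, which encodes TIE2 itself, was at 161 and 120 CPM and seen in 41.8% of members. Among transcription factors, Epas1 was at 720 and 743 CPM, Meox2 at 342 and 283, and Sox17 at 223 and 302. Ocln, a tight junction gene, had 0 UMIs in either library, which allows up to 3 UMIs in each. Class II antigen presentation genes were close to absent: H2-Aa had 0 and 3 UMIs and Cd74 had 9 in each library, against 8238 CPM of Cd74 in macrophages.

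Nearly every member passed the limit of the capillary gene list, which did not set capillary cells apart from other vessel classes. A cell passed a vessel class when the genes of that class summed to at least 3 UMIs with at least 2 genes seen, and a cell could pass several. The capillary list (Gpihbp1, Rgcc, Cd36, Kdr, Cd300lg, Aqp1, Car4, Aplnr, Timp4 and Sgk1) was passed by 95 of 98 LFD members (96.9%, 91.3 to 99.4%) and 114 of 115 HFD members (99.1%, 95.3 to 100%). Of 92 T lymphocytes, 3 passed it. Venous genes were passed by 12 LFD members (12.2%, 6.49 to 20.4%) and 11 HFD members (9.57%, 4.87 to 16.5%), and the lymphatic list by 2 and 1. These classes are ranges on a count and not types, and deeper cells pass more of them. LFD members inside the venous class had a median of 11543.5 UMIs against 3749 outside it.

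Arterial genes were passed more often on LFD, and the cells that passed were deeper. The class held 51 LFD members (52.0%, 41.7 to 62.2%) and 44 HFD members (38.3%, 29.4 to 47.8%). Of the members outside it, 12 LFD and 15 HFD cells stopped at 2 UMIs, and 9 and 8 cells inside had just 3. Arterial class cells had median depths of 6512 and 6223.5 UMIs, against 2375 and 2486 outside. With every cell thinned to 1000 UMIs the shares were 4.40% and 5.21%, in the opposite order. Most of the class came from Sox17 and Dll4, the latter a NOTCH ligand that capillary tip cells also use, and without both genes 20 LFD and 19 HFD members passed. Gja4 and Gja5, the connexins of arterial endothelium, were nearly absent at 2 and 12 UMIs and at 1 and 2 UMIs. The CPM of Sox17 was 223 on LFD and 302 on HFD (ratio 1.36, 1.06 to 1.73), whereas Dll4 was 235 and 172 (0.73, 0.55 to 0.97).

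**Figure D2:**
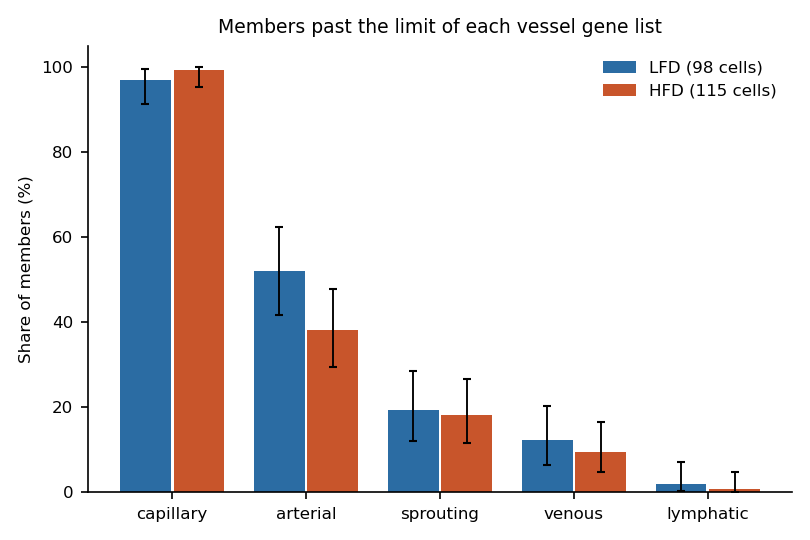
Share of LFD (98) and HFD (115) members past the limit of each vessel gene list, with exact 95% intervals of counting error. Capillary shares are near 100% in both libraries, arterial shares are 52.0% and 38.3% before thinning, and lymphatic shares rest on 2 and 1 cells.

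The 4 members outside the capillary class had 522 to 1842 UMIs. A few members that passed it also carried genes of larger or lymphatic vessels, and these were picked out after their values had been seen. With at least 5 UMIs of Vwf, the von Willebrand factor of larger vessels, 3 cells stood apart. The LFD one had 9 UMIs of Vwf, 10 of Lrg1, 10 of Plvap and 1 of Gpihbp1. An HFD cell of 9472 UMIs had 30 of Vwf, 56 of Lrg1, 29 of Plvap, 63 of Mgp and 0 of Gpihbp1. The other HFD cell had 5 of Vwf, 8 of Lrg1 and 9 of Selp, the P-selectin of venules. All of them had at least 4 UMIs of Cdh5 and at most 2 of Cldn5, and the HFD cell with 30 Vwf UMIs also had 3 of Prox1.

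Lymphatic endothelium was represented by 3 cells, 2 from LFD and 1 from HFD, with 7, 5 and 8 UMIs of Mmrn1. They carried 19, 68 and 128 UMIs of Ccl21a, the chemokine of lymphatic vessels, and 4, 6 and 8 of the hyaluronan receptor Lyve1. Prox1, the lymphatic master regulator, was seen in each, and Fabp4 was at 0 in each. Ccl21a has near-identical copies in the mouse genome, so its count is uncertain. Scrublet, a doublet caller, marked 4 members, namely these 3 cells and the HFD cell with 30 Vwf UMIs. Top2a, a topoisomerase of dividing cells, was seen in 3 LFD and 7 HFD members, and reached at least 5 UMIs in 1 and 2 of them, with 13, 8 and 14.

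Between diets the members' profiles were close. Of 3293 genes with at least 50 UMIs over both libraries, 24 (0.729%) were at least 2-fold higher on HFD and 51 (1.55%) at least 2-fold lower, and the median log2 ratio was 0.01. Genes of the definition, mitochondrial, ribosomal protein and haemoglobin genes, Xist and genes of the Y chromosome were left out. Of these, 4 higher and 5 lower genes had at least 50% of their UMIs on the higher diet in 1 cell. When the highest cell of each gene was left out of each library, 35 genes were higher and 58 lower, of which 21 and 45 were the genes of the first count. Of the 24 higher genes 7 were in a gene list or marker list, and of the 51 lower genes 15.

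**Figure D3:**
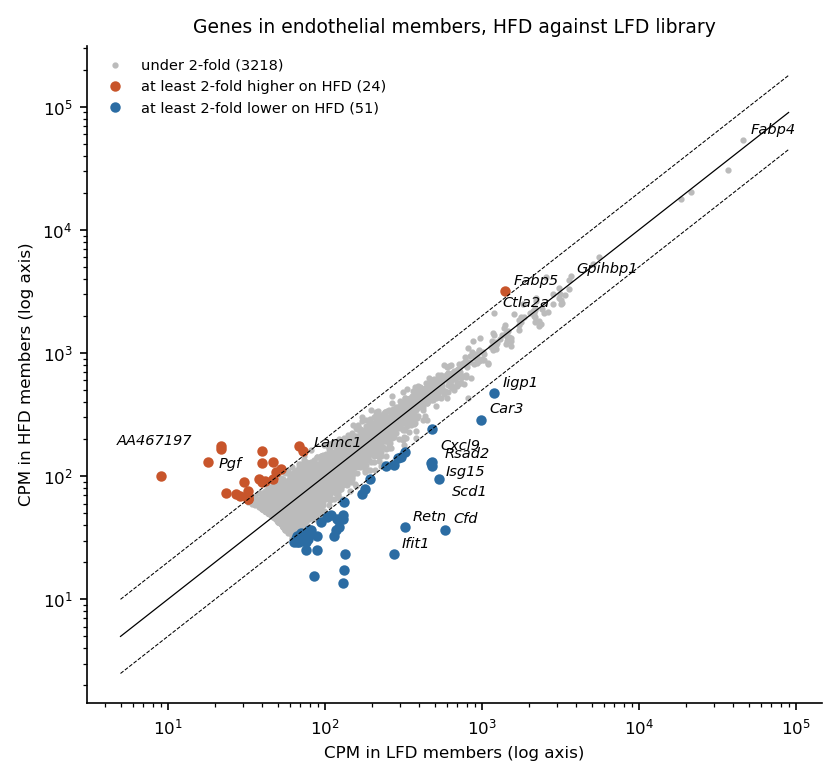
CPM of 3293 genes in LFD members (x, log axis) and HFD members (y, log axis), with the line of equality and dashed lines at 2-fold. Most genes lie along the diagonal, Fabp5 is the most abundant gene past the upper line, and Iigp1, Car3, Cfd, Isg15 and Rsad2 lie below the lower one.

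Genes of the interferon response list were mostly at lower levels in HFD members than in LFD members. Of 11 compared genes of the interferon response list, 7 were at least 2-fold lower and 0 higher, against 1.55% and 0.729% of all genes, and the median log2 ratio was −1.14. A single LFD cell held many of these UMIs, and without it 2 of 9 compared genes, Irf1 and Isg15, were at least 2-fold lower and the median was −0.69. Irf1, an interferon-induced transcription factor, had 152 UMIs in 57 LFD cells and 64 UMIs in 44 HFD cells (ratio 0.45, 0.33 to 0.61). Within the filter of the study's methods (200 to 2500 genes, under 5% mitochondrial UMIs) Irf1 was at 0.70 (0.41 to 1.19) and Isg15 at 0.64 (0.39 to 1.02), both under the 2-fold limit. Gbp2, a GTPase that attacks intracellular pathogens, had 135 UMIs on LFD and 62 on HFD (0.49, 0.36 to 0.67), and 0.56 without that cell. Igtp, another such GTPase, had 72 and 23 (0.34, 0.20 to 0.55), and 0.50 (0.29 to 0.85) without it. Ifit3 had 42 and 13 UMIs (0.33, 0.16 to 0.63), and 0.79 (0.35 to 1.72) without it. Ifitm3 and Ifi27, abundant members of the list, were at 2175 and 1965 CPM and at 331 and 335 CPM.

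That LFD cell held 671 of the 2976 LFD UMIs of the list. Isg15, a ubiquitin-like modifier, had 263 UMIs on LFD and 66 on HFD, and 120 of the former were in that cell. Rsad2, the antiviral enzyme viperin, had 268 and 67 UMIs with 156 in that cell. Ifit1, which binds viral RNA, had 152 and 12 with 122 in that cell. The cell had 20234 UMIs, 74 of Gpihbp1 and 24 of Kdr. It also held 25 of 42 Ifit3 UMIs and 25 of 72 Igtp UMIs. Without it the ratios were 0.48 (0.35 to 0.64) for Isg15, 0.62 (0.45 to 0.84) for Rsad2 and 0.41 (0.19 to 0.83) for Ifit1, which then had too few UMIs to be compared. The summed list was at 4329 and 3559 CPM (0.82, 0.77 to 0.87) without that cell, against 5384 and 3559 (0.66, 0.62 to 0.70) with it. Over all genes, 37 were then at least 2-fold lower.

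Other interferon-induced genes stood among the 10 lowest ratios. Ifit2 had 73 UMIs in LFD members, 40 of them in 1 cell, and 9 in HFD members (0.13, 0.058 to 0.26), and its ratio was 0.28 (0.12 to 0.60) without that cell. The gene 9930111J21Rik2 had 268 UMIs in 53 LFD cells and 62 in 30 HFD cells (0.25, 0.18 to 0.33), and 0.27 (0.20 to 0.35) without the same cell. The log2 ratio of Ifit2 was −0.97 within the study's filter and −0.98 in members with at most 2500 genes, under the 2-fold limit.

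Iigp1, an interferon-induced GTPase outside the list, was spread over many cells. It had 666 UMIs in 68 of 98 LFD members and 245 UMIs in 56 of 115 HFD members, with medians of 3 and 0 UMIs per cell and highest cells of 75 and 30. Its ratio was 0.39 (0.34 to 0.46), and 0.43 (0.37 to 0.50) without the LFD cell described above, which held 75 of its UMIs. It was 0.41 (0.34 to 0.49) among members with over 2500 genes, and 0.38 (0.28 to 0.51) within the study's filter. In members with over 2500 genes (32 LFD, 24 HFD) the summed interferon list was at 6148 and 3485 CPM (0.57, 0.52 to 0.61). That LFD cell is among them, and without it the levels were 4490 and 3485 CPM (0.78, 0.71 to 0.84). In the other members (66 and 91) they were 4066 and 3632 CPM (0.89, 0.81 to 0.98). Within the study's filter, which left 49 and 55 members, the median log2 ratio was −0.39 over the 6 genes that still had 50 UMIs.

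In other cell groups of the same libraries the sum of the list and its median over genes did not always point the same way. The summed interferon list was at 4150 and 3260 CPM in the excluded endothelial barcodes (0.79, 0.75 to 0.82), 2520 and 1488 in macrophages (0.59, 0.56 to 0.62) and 2915 and 2595 in fibroblasts (0.89, 0.86 to 0.92). The medians of their log2 ratios were −0.79, −0.84 and −0.89, with 3 of 11, 5 of 12 and 5 of 11 compared genes at least 2-fold lower. Of all genes compared in the same barcodes, 0.828%, 5.98% and 2.34% were at least 2-fold lower. No gene of the list was at least 2-fold higher there, against 1.28%, 5.2% and 1.49% of all genes. In T lymphocytes it was at 985 and 1236 CPM (1.25, 0.93 to 1.67) from 71 and 21 cells, although both of its 2 compared genes were below 0 (median −1.74), and in mural cells at 2482 and 2704 CPM (1.09, 0.82 to 1.46) from 6 and 8 cells. Iigp1 was at 1034 and 375 CPM in the excluded endothelial barcodes, 223 and 55.6 in fibroblasts and 90.2 and 6.83 in macrophages, against 1205 and 474 in members.

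**Figure D4:**
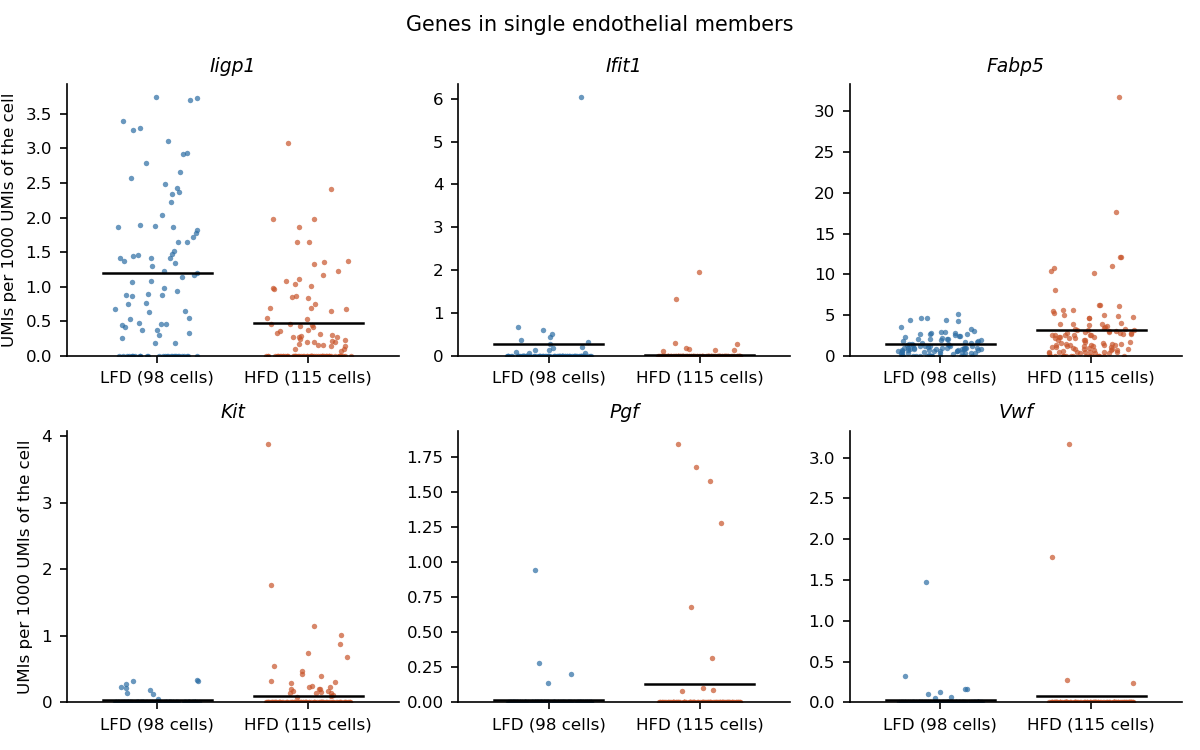
UMIs of 6 genes per 1000 UMIs of each cell in 98 LFD and 115 HFD members, with 1 point per cell, spread sideways for sight, and a black line at the pooled level. Iigp1 and Fabp5 differ over many cells, while the levels of Ifit1, Pgf and Vwf come from a few cells, and 1 LFD cell carries most Ifit1 UMIs.

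Interferon-stimulated response elements are built from repeats of the core GAAA, to which interferon regulatory factors bind. The promoter windows of RefSeq (GRCm38.p6, 250 bases before to 50 after each start) were searched for GAAA, any 2 bases and GAAA, on both strands and with overlaps counted. This pattern was chosen after the lower genes had been seen. It was found in 3.99% of 27025 genes with a window and in 4.49% of the 2581 compared genes with one. Of the 51 lower genes, 42 had a window and 11 of these (26.2%) held it, namely Apol10b, Gbp2, Gbp7, Gm12216, H2-T23, Ifit1, Ifit3, Igtp, Irgm1, Isg15 and Rsad2. Without the single LFD cell 37 genes were lower, 31 had a window and 4 of these (12.9%) held it, Apol10b, Gm12216, H2-T23 and Isg15, against 4.25% of the 2541 genes then compared with a window. Of the 24 higher genes, 11 had a window and 2 held it, Fbln5 and Inhbb. On the interferon list, 10 genes had a window and 8 of these held it, Bst2 and Ifitm3 among them. A match is a description of letters and not a bound site. The 150 bases directly before the start are printed 5′ to 3′ for 3 of the genes that the single LFD cell carried, with each match in capitals.
Ifit1 (chr19:34640739-34640888, plus strand): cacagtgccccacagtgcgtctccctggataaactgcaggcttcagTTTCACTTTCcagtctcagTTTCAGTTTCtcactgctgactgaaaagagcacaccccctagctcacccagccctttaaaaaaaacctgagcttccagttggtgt
Isg15 (chr4:156200819-156200968, minus strand): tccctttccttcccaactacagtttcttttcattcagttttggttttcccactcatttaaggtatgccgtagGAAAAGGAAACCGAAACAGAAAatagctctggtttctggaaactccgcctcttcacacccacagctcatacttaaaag
Rsad2 (chr12:26456453-26456602, minus strand): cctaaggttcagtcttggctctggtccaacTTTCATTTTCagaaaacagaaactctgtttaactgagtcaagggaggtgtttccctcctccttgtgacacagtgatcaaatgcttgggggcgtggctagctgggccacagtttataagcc
Ifit1 held 2 matches, Isg15 3 that overlap in 1 run, and Rsad2 1. Irf1 and Cxcl9, which were also lower, held none in their windows.

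Most compared genes of class I antigen presentation were lower in HFD members, by smaller steps. Of 12 compared genes, 2 were at least 2-fold lower and 0 higher, against 1.55% and 0.729% of all genes, 11 had a log2 ratio below 0, and the median was −0.44. H2-T23 had 180 UMIs on LFD and 82 on HFD (ratio 0.49, 0.37 to 0.64), and H2-Q6 had 107 and 49 (0.49, 0.34 to 0.69). Without the LFD cell described above H2-T23 alone was past 2-fold, both ratios then being 0.50. Within the study's filter the log2 ratio of H2-T23 was −0.50, and with stricter exclusion clauses H2-T23 and H2-Q6 were at −0.97 and −0.85, under the 2-fold limit. H2-K1 and B2m, a classical heavy chain and the shared light chain, were at 2318 and 1671 CPM (0.72, 0.66 to 0.79) and at 1532 and 1142 CPM (0.75, 0.67 to 0.83). Psmb8, a subunit of the immunoproteasome, was at 508 and 372 CPM (0.73, 0.61 to 0.88). Tapbp stood on the other side at 165 and 178 CPM. H2 genes are near-identical to each other in parts, so how counting split reads between H2-Q4, H2-Q6 and H2-Q7 is uncertain. The summed list was also lower in excluded endothelial barcodes (ratio 0.76), fibroblasts (0.78) and macrophages (0.80), and higher in T lymphocytes (1.22). Cxcl9, a chemokine that draws T cells, had 268 UMIs in 67 LFD members and 125 in 55 HFD members (0.50, 0.40 to 0.62). Its log2 ratio ran from −1.25 to −0.67 over the alternatives run, the latter under the 2-fold limit.

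**Figure D5:**
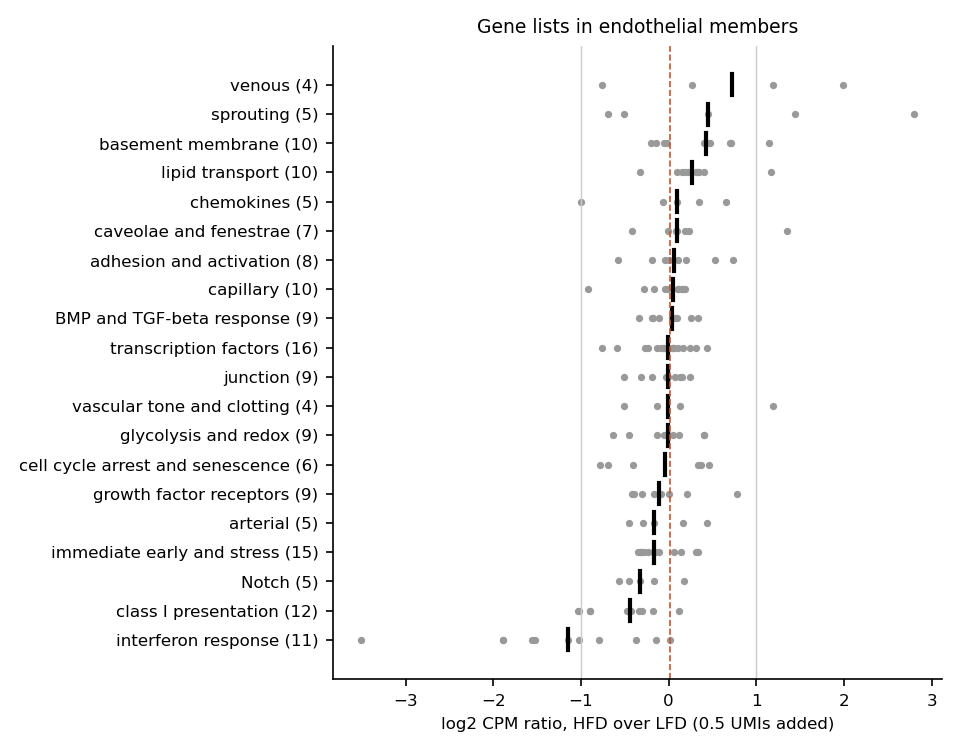
log2 CPM ratio, HFD over LFD, of each compared gene (grey points) and the median (black bar) of 20 gene lists with at least 4 compared genes (their number in brackets). The dashed line is the median of all 3293 genes at 0.01 and the grey lines mark 2-fold; the interferon response and class I lists lie lowest, and the venous median at the top rests on 4 genes.

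Of 10 compared genes of the lipid transport list, which serve fatty acid uptake and binding, 1 was at least 2-fold higher (0.729% of all genes) and 9 had a log2 ratio above 0, with a median of 0.27. Fabp5 had 781 UMIs in 83 LFD cells and 1638 in 98 HFD cells, or 1413 and 3171 CPM (ratio 2.24, 2.06 to 2.45). Its cells ran from 0 through a median of 4 to 66 UMIs on LFD and from 0 through 5 to 123 on HFD, so the ranges overlapped. The ratio was 2.37 (2.01 to 2.80) within the study's filter, but with no exclusion clauses the log2 ratio was 0.83, under the 2-fold limit, against 1.17 in members. Fabp5 was at 1054 and 1663 CPM in the excluded endothelial barcodes. It was at 27.6 and 1084 CPM in macrophages and 62.2 and 128 CPM in T lymphocytes, and the part of RNA from other cells in the members' value was not tested. Scarb1, a lipoprotein receptor, was at 403 and 532 CPM (1.32, 1.10 to 1.58), Cd36 at 3725 and 4240 (1.14, 1.07 to 1.21), and Gpihbp1 at 3568 and 3956 (1.11, 1.04 to 1.18). Fabp4 was at 45868 and 53417 CPM (1.16, 1.14 to 1.18). Lpl, the lipase that GPIHBP1 binds, was at 612 and 486 CPM (0.80, 0.67 to 0.94), and at 841 and 42.6 CPM in T lymphocytes.

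Adipocyte transcripts were among the lowest ratios. Cfd, the adipocyte protease adipsin, had 323 UMIs in 61 LFD cells and 19 in 8 HFD cells (ratio 0.063, 0.037 to 0.10). Retn, the hormone resistin, had 178 and 20 (0.12, 0.07 to 0.19), Car3 547 and 149, and Adipoq 65 and 19. The lipid synthesis genes Fasn and Scd1 had 72 and 7 UMIs (0.10) and 297 and 49 UMIs (0.18). Rbp4, the retinol carrier, had 74 and 12 (0.17) and Cdo1, a cysteine oxidase, 47 and 8 (0.18). Of the 8 adipocyte markers, 8 were seen on LFD and 7 on HFD. Only 5 had the 50 UMIs needed for comparison, most of them from LFD, and these 5 were at least 2-fold lower (1.55% of all genes). The other 3, Plin1, Lep and Adrb3, had 13 and 3, 13 and 15, and 9 and 0 UMIs. The summed list was at 2196 CPM on LFD and 480 on HFD. Per cell it ran from 0 through a median of 0.78 to 14.1 UMIs per 1000 on LFD and from 0 through 0.18 to 10.6 on HFD. Excluded endothelial barcodes had 1524 and 337 CPM, macrophages 176 and 84.7, fibroblasts 25.9 and 6.61, and T lymphocytes 0 and 1 UMI. Whether adipocyte RNA entered with these cells or was made by them was not tested. Haemoglobin transcripts were seen in 27 LFD and 49 HFD members and made up at most 27.2% and 11% of the UMIs of a cell.

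Genes of sprouting and of larger vessels were among the highest ratios, and many rested on few cells. Pgf, placental growth factor, had 10 UMIs in 4 LFD cells and 68 in 9 HFD cells (ratio 7.28, 3.73 to 15.9), with 25, 17, 10 and 10 of them in 4 HFD cells. Those cells held 41 to 101 UMIs of Cldn5 and 12 to 77 of Gpihbp1. The cell with 25 also had 29 of the 67 HFD UMIs of Apln, the tip cell ligand, which had 26 on LFD (2.76, 1.73 to 4.52). In the excluded endothelial barcodes Apln was at 72.4 and 70.8 CPM and Pgf at 24.5 and 33.0, and with no exclusion clauses the log2 ratio of Apln was 0.47, under the 2-fold limit. The cell with 25 Pgf UMIs held 27 of the 86 HFD UMIs of AA467197, a gene with 12 UMIs on LFD (7.67, 4.17 to 15.4). AA467197 was nonetheless seen in 26 HFD cells against 9 LFD cells, and without the highest cells its ratio was 6.31. Angpt2 and Adm, also on the sprouting list, had 40 and 26 UMIs and 35 and 20 UMIs. Of its 5 compared genes 2 were at least 2-fold higher (0.729% of all genes), and 19 LFD and 21 HFD members passed its class limit.

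The venous list had 2 of 4 compared genes at least 2-fold higher (0.729% of all genes), Vwf and Lrg1, and both had their highest HFD cell in the one of 9472 UMIs described above. Vwf had 18 and 39 UMIs (ratio 2.32, 1.30 to 4.31), and without that cell the ratio was 0.55 (0.22 to 1.28). Lrg1, a secreted glycoprotein of venous endothelium, had 22 and 83 (4.04, 2.50 to 6.79), and 1.34 (0.73 to 2.46) without it. Without that cell 2 genes of the list had enough UMIs to compare, 0 were at least 2-fold higher and 1, Nr2f2, at least 2-fold lower, and the median log2 ratio was −0.37. Mgp, a matrix protein that binds BMPs, had 12 and 91, 63 of them in that cell, and its ratio was 8.12 with it and 2.54 (1.25 to 5.49) without it. Bgn, a matrix proteoglycan, had 22 and 66 UMIs in 15 and 24 cells (3.21, 1.96 to 5.46), and 2.53 (1.51 to 4.38) without it. Its log2 ratio was 0.79 with stricter exclusion clauses and −0.48 within the study's filter. In the excluded endothelial barcodes Lrg1 was at 12.2 and 47.2 CPM and Mgp at 457 and 988. Fibroblasts had more of both matrix genes, with Mgp at 959 and 2406 CPM and Bgn at 615 and 1418. The part of RNA from other cells in the members' values of Mgp and Bgn was not tested. Ephb4 and Nr2f2, venous identity genes, had 32 and 36 UMIs and 44 and 24 UMIs.

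Kit, Inhbb and Trib1 were among the 10 highest ratios and had 0, 0 and 3 UMIs in that HFD cell. Kit, the stem cell factor receptor, had 17 UMIs in 10 LFD cells and 46 in 29 HFD cells (ratio 2.90, 1.63 to 5.39). Inhbb, a subunit of activin, had 13 in 10 and 38 in 23 (3.13, 1.63 to 6.4). Trib1 had 15 in 11 and 37 in 20 (2.64, 1.41 to 5.18). Plvap, which forms the diaphragms of caveolae and fenestrae, had 38 UMIs in 13 cells and 91 in 21 (2.56, 1.74 to 3.85). The Vwf-rich cell held 29 of the latter, and without it the ratio was 1.78 (1.17 to 2.74), under the 2-fold limit. In the excluded endothelial barcodes Kit was at 35.7 and 44.8 CPM, Inhbb at 29.6 and 52.7, and Trib1 at 61.2 and 69.2. In fibroblasts Kit was at 0 and 0.39 CPM, Inhbb at 45.2 and 20.2, and Trib1 at 103 and 132. Trib1 was at 168 and 109 CPM in macrophages, against 27.1 and 71.6 in members. The part of RNA from other cells in the members' values was not tested. With no exclusion clauses the log2 ratios of Kit and Trib1 were 0.76 and 0.51, under the 2-fold limit, and Trib1 was also under it with stricter clauses (0.82) and within the study's filter (0.86).

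Of 10 compared basement membrane genes 1 was at least 2-fold higher (0.729% of all genes), 6 were above 0, and the median log2 ratio was 0.43 against 0.01 over all genes. The summed list was at 6300 and 8480 CPM in members (1.35, 1.29 to 1.41). Its ratio was also above 1 in excluded endothelial barcodes (1.28, 1.24 to 1.31), fibroblasts (1.70, 1.67 to 1.73), mural cells (1.61, 1.40 to 1.85) and macrophages (2.01, 1.47 to 2.79), and was 2.50 in T lymphocytes with an interval of 0.70 to 7.49. Lamc1, a laminin chain, had 40 UMIs in 26 LFD cells and 83 in 44 HFD cells (ratio 2.22, 1.51 to 3.32), but a log2 ratio of 0.46 with no exclusion clauses and 0.98 with stricter ones. The collagen IV chains Col4a1 and Col4a2 were at 972 and 1336 CPM (1.38, 1.23 to 1.54) and at 577 and 803 CPM (1.39, 1.2 to 1.62). Sparc, a collagen-binding matrix protein, made up 2549 of the 6300 CPM of the summed list on LFD and 4140 of the 8480 on HFD (1.62, 1.52 to 1.74). The summed ratio thus rests largely on Sparc, and 4 of the 10 compared genes had a log2 ratio below 0. Hspg2, Lama4 and Lamb2 were at 422 and 368, 107 and 103, and 134 and 132 CPM. Sparc was at 3074 and 6823 CPM in fibroblasts, and the part of RNA from other cells in the members' value was not tested.

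Of 10 compared capillary genes 0 passed the 2-fold limit in either direction, as did few of all genes (0.729% and 1.55%), and the median log2 ratio was 0.05. Timp4, a metalloproteinase inhibitor, came nearest at 451 UMIs in 80 LFD cells and 223 in 71 HFD cells (ratio 0.53, 0.45 to 0.62). It was at 741 and 446 CPM in the excluded endothelial barcodes. Aqp1 was at 2169 and 1779 CPM (0.82, 0.75 to 0.89) and Ctla2a at 1196 and 2124 CPM (1.78, 1.61 to 1.96). Notch genes had 0 of 5 past the limit and a median of −0.32, with Hes1, a NOTCH target, at 364 and 290 CPM (0.80, 0.64 to 0.99). Nrp2, a co-receptor for VEGF, was at 152 and 261 CPM (1.72, 1.30 to 2.29) and Cd34 at 268 and 445 CPM (1.66, 1.35 to 2.06).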

How the data were processed

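The authors prepared 10x Genomics libraries, aligned them to mm10 with Cell Ranger and deposited, per library, a matrix of raw counts (UMIs per gene and barcode). The file headers name Cell Ranger 3.0.2. The tables hold barcodes before the study's own filter of 200 to 2500 genes and under 5% mitochondrial UMIs. Samples were grouped by the diet in the treatment label, with 1 library per diet.

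From the deposited counts, UMIs were summed over members per library and divided by the members' total to give CPM. Members, gene lists and comparisons were chosen with earlier results of these data known. The vessel exceptions, the strata by gene number, the promoter pattern, the promoters printed and Iigp1 were picked after values were seen. Intervals at 95% are exact Poisson for CPM, Clopper-Pearson for shares and conditional binomial for CPM ratios, and cover counting error only. A gene with at least 50 UMIs over both diets was compared and was called at a ratio of at least 2 or at most 0.5. List medians added 0.5 UMIs to each count. Where UMIs were 0 the data allow up to 3. Genes named are the 10 highest and 10 lowest ratios, the 10 most enriched in members (20 CPM added, seen in at least 25% of members), the 5 markers and genes of 24 lists. Of these, 1 of the 10 highest and 1 list gene are counted but not reported here. The lists cover capillary, arterial, venous, lymphatic, sprouting, junction, lipid transport, caveolae and fenestrae, growth factor receptors, Notch, BMP and TGF-beta response, transcription factors, adhesion and activation, class I and class II presentation, interferon response, chemokines, vascular tone and clotting, basement membrane, mesenchymal genes, immediate early and stress, cell cycle arrest and senescence, proliferation, and glycolysis and redox. T lymphocytes, which should lack endothelial genes, had at least 2 Cd3 UMIs. They also had fewer than 3 UMIs of C1q genes, of Dcn, and of Cdh5 and Cldn5 together. The mural, fibroblast and macrophage groups likewise had fewer than 3 UMIs of Cdh5 and Cldn5. Low endothelial levels in these groups therefore follow in part from how they were chosen. Shares were also computed after thinning each cell to 1000 UMIs. Doublets were called with Scrublet (expected rate 1%), which marked 1.99% of LFD and 2.33% of HFD barcodes, and were kept in the results given first. The ratio and its interval were tested on simulated data. Alternatives changed the definition, barcode filters, scaling, UMI minimum, class limits and depth. Figures were drawn with matplotlib 3.10.9, doublets called in scanpy 1.11.5 and the rest computed in Python 3.11.15 with scipy 1.17.1, pandas 2.3.3 and numpy 2.4.6.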

Additional observations from a re-analysis of the deposited data

How the results depend on the processing

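No paired analysis was possible because each diet has 1 library and no test was made. Values are given LFD then HFD. Member shares were 7.19% and 7.97% with stricter exclusions, 15.0% and 20.2% with no exclusions, and 16.7% and 15.6% within the study's barcode filter. The 24 higher and 51 lower genes became 76 and 108 with mean per-cell CPM, 158 and 213 at a minimum of 20 UMIs, 5 and 19 at 100 UMIs, and 14 and 20 within the study's filter, where fewer genes could be compared. No exclusions gave 99 higher genes, stricter exclusions 31 lower genes and members with at most 2500 genes 21 lower genes. The interferon median of −1.14 was −0.39 within the study's filter and −0.56 in members with at most 2500 genes, and stayed below 0 under every alternative run. The log2 ratio of Vwf turned to −0.62 with stricter exclusions, −0.97 within the study's filter, −0.84 without Scrublet calls, −0.84 without the HFD cell with 30 Vwf UMIs and −1.18 in members with at most 2500 genes. Mgp turned to −1.50 with stricter exclusions and Bgn to −0.48 within the study's filter. The causes were not tested, apart from the settings that remove the Vwf-rich cell by construction. Capillary shares on HFD were 100% with Cdh5 and Cldn5 at 5 or more, within the study's filter, at 1000 UMIs or more, and at a class limit of 2 UMIs. Arterial shares were 62.9% and 61.1% with no exclusions, 64.3% and 51.3% at a limit of 2, 32.7% and 24.4% at a limit of 5, and 4.40% and 5.21% thinned, and the LFD share was 36.7% within the study's filter. Venous shares were 21.4% and 24.3% with no exclusions, 4.08% and 3.64% within the study's filter, 5.10% and 4.35% at a limit of 5, and 1.10% and 2.08% thinned. Lymphatic shares were 0% and 0% without Scrublet calls, and 0% on HFD within the study's filter. With no exclusions, Gpihbp1 was at 2947 and 2837 CPM, Kdr at 869 and 699 and Pecam1 at 746 and 795. Within the study's filter LFD levels were 3864 CPM for Gpihbp1 and 989 for Pecam1, and mean per-cell CPM gave Gpihbp1 3758 on HFD and Kdr 924 on LFD. The settings that split members by gene number or mitochondrial share, or leave out single cells, were chosen after seeing the data.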

Other observations

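The remaining gene groups of these endothelial cells are given by their counts past 2-fold, to be read against 0.729% higher and 1.55% lower of all 3293 genes, which leaves a count of 0 in a short list uninformative. Transcription factors had 0 of 16 compared genes past 2-fold and a median log2 ratio of 0.00, junction genes 0 of 9 and −0.01, and genes of glycolysis and redox 0 of 9 and −0.01. Immediate early and stress genes, which answer tissue handling as well as signals, had 0 of 15 past 2-fold and a median of −0.17. Genes of BMP and TGF-beta response had 0 of 9 past 2-fold and a median of 0.04. Cell cycle arrest and senescence genes had 0 of 6 and −0.04, and proliferation genes 0 of 2 and −0.02. Growth factor receptors had 0 of 9 and −0.11, adhesion and activation genes 0 of 8 and 0.06, and the lymphatic and mesenchymal lists, with 2 compared genes each, medians of 0.33 and 0.27. Caveolae and fenestrae genes had 1 of 7 higher (Plvap, 0 of 7 without the Vwf-rich HFD cell) and a median of 0.09, vascular tone and clotting genes 1 of 4 higher (Vwf, whose ratio was 0.55 without that cell) and −0.01, chemokines 1 of 5 lower (Cxcl9) and 0.10, and arterial genes 0 of 5 and −0.16. Of class II genes, 7 of 7 were seen and 0 had enough UMIs to compare.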
